A study of Mus musculus with 13 samples.

Results

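The genes described here encode the subunits of respiratory complexes II, III, IV and V and cytochrome c in C2C12 myotubes treated with palmitoylethanolamide (PEA). They were chosen by symbol, as protein-coding genes named Sdha to Sdhd, Cyc1, Cycs, mt-Cytb, mt-Co1 to mt-Co3, mt-Atp6 or mt-Atp8, or with a symbol that begins with Uqcr, Cox4i, Cox5, Cox6, Cox7, Cox8 or Atp5. The annotation holds 58 such genes, of which 54 were in the tables. Cox4i2, Cox7b2, Cox8c and a readthrough gene that carries the symbol Atp5po were not analysed here. Cox6b2 had a mean of 1.57 normalized counts, below the minimum of 10, which left 53 members among the 16382 genes in the tables. The lowest member was Cox7a1, with a mean of 34.3. All 53 also passed edgeR's filter on low counts, as did 13142 genes in all. Nuclear DNA encodes 47 of the members and mitochondrial DNA encodes 6.

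RNA-seq was performed on wild-type C2C12 cells, a mouse myoblast line that fuses into multinucleated myotubes in low serum. On day 8 of differentiation, myotubes received 10 μM PEA, a lipid amide that the body also makes, or DMSO alone as the vehicle (CON), and RNA was collected after 24 h. Each group had 6 libraries, prepared from polyadenylated RNA. The experiment was run 3 times with a pair of wells per treatment each time, and which libraries belong to the same run is not given. The p-values treat the 6 libraries of a group as independent although each group holds only 3 independent runs, so they measure the spread between these libraries and may be too small. C2C12 cultures keep unfused myoblasts beside the myotubes, and fewer cells of a type cannot be told apart from less RNA per cell in such bulk samples.

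Oxidative phosphorylation takes place at the inner mitochondrial membrane. Complex II (succinate dehydrogenase) passes electrons from succinate to ubiquinone, complex III passes them on to the small carrier cytochrome c, and complex IV (cytochrome c oxidase) hands them to oxygen. Complexes III and IV pump protons, and complex V (ATP synthase) makes ATP as protons flow back. Most subunits are encoded in the nucleus and imported, while a few of complexes III, IV and V are encoded in mitochondrial DNA. Skeletal muscle and heart replace some general subunits of complex IV with muscle isoforms as they mature.

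Library totals were 12354845 to 50397444 estimated counts (median 18420606). Values below are normalized counts, the estimated counts divided by 1 factor per library, and group values are mean ± SD with n = 6. Differences were tested with edgeR's quasi-likelihood test over all 13142 genes with Benjamini-Hochberg adjustment, and a gene was called at an adjusted p below 0.05. Fold changes are log2 values of PEA against CON with their standard error (SE), and "lower" and "higher" refer to PEA. Positions refer to GRCm39.

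In PEA-treated myotubes, 21 of the 53 members were lower and 1 was higher. Over all genes tested, 4.74% were called lower and 6.31% higher. The log2 fold change was below 0 for 50 of the 53 members, against 48.7% of all genes, and the median over the members was -0.17, against 0.01 over all genes. The changes were therefore small and shared across complexes, with 2 of 4 subunits called lower in complex II, 5 of 9 in complex III, 5 of 10 general subunits in complex IV and 8 of 17 in complex V. Cytochrome c was lower as well. None of the 6 members in mitochondrial DNA was called by edgeR, DESeq2 or limma-voom, and 1 of them, mt-Atp8, had an unadjusted p below 0.05 in edgeR. The member called higher was Cox6a2, a muscle isoform.

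**Figure D1:**
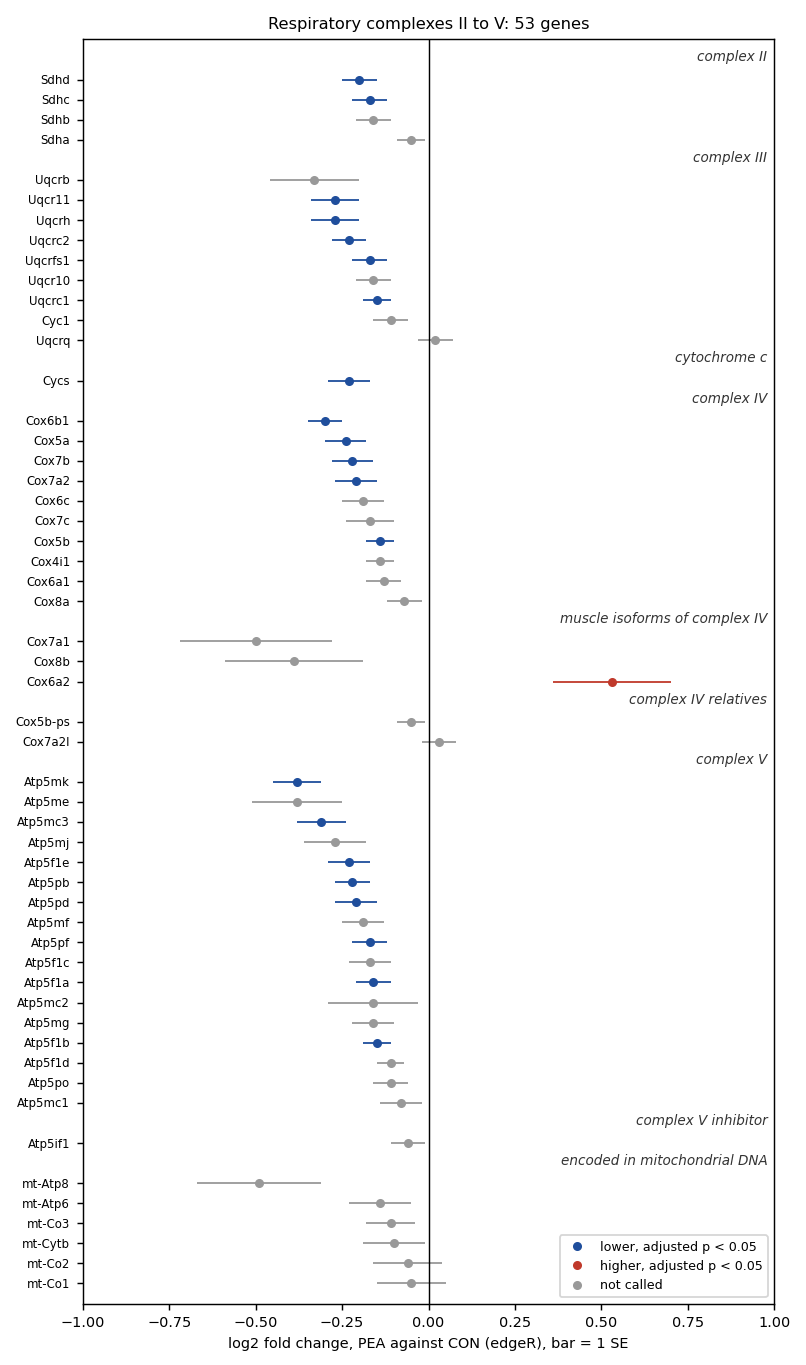
Log2 fold change of PEA against CON for each of the 53 members, in their groups, with bars of 1 SE from edgeR. Points of 50 members lie left of 0, the 21 called lower are blue, and Cox6a2 at 0.53 is the only one called higher.

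By edgeR, a further 10 members had an adjusted p between 0.05 and 0.10 (982 of all 13142 genes). An unadjusted p below 0.05 was found for 39 members (3601 of all 13142 genes). DESeq2, the tool the authors used, called 30 members lower and Cox6a2 higher (7.03% and 7.48% of all genes), and these included all 22 members called by edgeR. The number called lower by edgeR depended on single libraries. It fell to 6 without PEA replicate 5, 7 without PEA replicate 6, 9 without CON replicate 6, 11 without CON replicate 3, PEA replicate 2 or PEA replicate 4, and 13 without CON replicate 5, and it was 28 without CON replicate 2. The median over the members moved only from -0.19 to -0.15 in these fits. Atp5mc3, Atp5mk, Atp5pb, Cox5a, Cox6b1 and Uqcrc2 were called lower in all 12 fits that left out 1 library and under every other alternative fit at the threshold of 0.05. The other calls held in 2 (Atp5f1a) to 11 (Atp5f1e) of the 12, among them those of Atp5f1b in 4, Uqcrc1 in 5 and Cox5b in 6.

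In 7 members every PEA library lay below every CON library, namely Atp5f1b, Atp5mk, Atp5pb, Cox5a, Cox5b, Cox6b1 and Uqcrc1. Of all genes tested, 1.81% were lower without overlap and 4.34% did not overlap in either direction. In 9 other called members, 5 of 6 PEA libraries lay below the lowest CON library, and these were Sdhc, Sdhd, Uqcr11, Uqcrc2, Uqcrh, Cox7b, Atp5f1e, Atp5mc3 and Atp5pd. The same held for Atp5f1d, Atp5me and Atp5mj, which were not called. How many of all genes show this was not computed, so these counts cannot be set beside a share.

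The median log2 fold change over the 4 subunits of complex II was -0.17, and only the membrane anchors Sdhc and Sdhd were called. Sdhd (chr9:50507642-50515195) had 2789, 2989 and 3386 normalized counts as lowest, median and highest value in CON, and 2398, 2644 and 2841 in PEA. The ranges touched only because PEA replicate 3 exceeded CON replicate 1. Sdhd fell from 3028 ± 221 to 2632 ± 156 (log2 fold change -0.20 with SE 0.05, edgeR adjusted p = 0.0266). Sdhc fell from 3278 ± 262 to 2904 ± 120 (log2 fold change -0.17 with SE 0.05, edgeR adjusted p = 0.0444). Sdhb, the iron-sulfur subunit, had 2237 ± 133 in CON and 1994 ± 139 in PEA and just missed the threshold (adjusted p = 0.0565 by edgeR). Sdha, the flavoprotein that binds succinate, differed by less than the spread between libraries, at 5377 ± 213 and 5185 ± 203 (log2 fold change -0.05 with SE 0.04). Neither call in complex II held without CON replicate 6, PEA replicate 4, PEA replicate 5 or PEA replicate 6, where 0 of the 4 subunits were called.

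In complex III, the core proteins Uqcrc1 and Uqcrc2, the Rieske iron-sulfur protein Uqcrfs1, the hinge protein Uqcrh and the small subunit Uqcr11 were lower. Uqcrc2 (chr7:120233976-120260035) had 2890, 3206 and 3433 normalized counts as lowest, median and highest value in CON and 2571, 2730 and 2987 in PEA. Only PEA replicate 4 reached into the CON range, above CON replicate 4. The means were 3207 ± 209 and 2738 ± 147 (log2 fold change -0.23 with SE 0.05, edgeR adjusted p = 0.0107).

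Uqcrh ranged from 3112 to 3764 in CON (median 3289) and from 2487 to 3236 in PEA (median 2766). PEA replicate 1 was the only PEA library within the CON range. Its decrease was the largest among the called subunits of the complex, together with that of Uqcr11 (log2 fold change -0.27 with SE 0.07, edgeR adjusted p = 0.0184). Uqcr11 had the same log2 fold change of -0.27 (SE 0.07, edgeR adjusted p = 0.0223), from 1648 ± 165 to 1368 ± 125. CON replicate 4 was its highest library at 1972. Uqcrc1 (chr9:108765701-108778710) showed a smaller but fully separated decrease, with 4238, 4345 and 4820 in CON and 3858, 3994 and 4071 in PEA. No PEA library reached the CON range (log2 fold change -0.15 with SE 0.04, edgeR adjusted p = 0.0295). Uqcrfs1 fell from 2778 ± 144 to 2459 ± 145 (adjusted p = 0.033 by edgeR).

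The other subunits of complex III did not pass the threshold. Uqcrb had the lowest value of the complex, at -0.33, with a wide SE of 0.13 (adjusted p = 0.102 by edgeR). Uqcr10 was at -0.16 (adjusted p = 0.0563 by edgeR) and Cyc1, a cytochrome subunit, at -0.11. Uqcrq was the exception to the direction of the group. It had 2849, 3038 and 3361 normalized counts in CON and 2923, 3143 and 3251 in PEA, so that all PEA libraries lay within the CON range (log2 fold change 0.02 with SE 0.05, edgeR adjusted p = 0.817). Its exons overlap those of Gdf9 on the opposite strand. Such overlaps were found for 34 of the 53 members, among them 13 of the 21 called lower and Cox6a2, and whether the counting used strand is not stated, so reads of the partner genes may be included in their values.

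Cycs, which encodes cytochrome c itself, had 1161, 1330 and 1450 normalized counts as lowest, median and highest value in CON and 992, 1157 and 1215 in PEA. All 6 PEA libraries were below the CON median and 3 were below the lowest CON library. The means were 1321 ± 116 and 1126 ± 85.5 (log2 fold change -0.23 with SE 0.06, edgeR adjusted p = 0.0343). With each library left out in turn, the call held in 4 of 12 fits.

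Among the general subunits of complex IV, Cox6b1, Cox5a, Cox7b, Cox7a2 and Cox5b were lower. When the trend of each library with canonical transcript length and GC content was removed, Cox5b (-0.09, adjusted p = 0.144 by edgeR) and Cox7a2 (-0.15, adjusted p = 0.0641) were not called, and the median of the 10 moved from -0.18 to -0.08. Cox6b1 (chr7:30316282-30325616), which sits on the intermembrane side where cytochrome c docks, had the smallest p-value of all 53 members. Its lowest, median and highest values were 3602, 3945 and 4379 normalized counts in CON and 3057, 3215 and 3503 in PEA. The groups did not overlap, and CON replicates 3 and 4 were the highest libraries. The mean fell from 3988 ± 314 to 3243 ± 156, or 81.3% of CON (log2 fold change -0.30 with SE 0.05, edgeR adjusted p = 0.00332).

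Cox5a (chr9:57428456-57440678), a subunit on the matrix side, had 2726, 2769 and 3138 in CON and 2038, 2433 and 2711 in PEA. The groups did not overlap, although PEA replicate 1, at 2711, came close to the lowest CON library. The log2 fold change was -0.24 (SE 0.06, edgeR adjusted p = 0.0175). Cox5b (chr1:36730530-36734495) also separated completely, with 2240 to 2366 in CON and 1960 to 2188 in PEA (edgeR log2 fold change -0.14 with SE 0.04, adjusted p = 0.031). Cox5b and Cox5b-ps, an annotated copy without introns on chromosome 13, both held fractional counts in all 12 libraries, so the split of reads between them is uncertain. Cox5b-ps, with 1136 ± 35.2 in CON and 1096 ± 46.7 in PEA, was not called.

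Cox7b fell from 3545 ± 269 to 3049 ± 248 (log2 fold change -0.22) and Cox7a2 from 1991 ± 169 to 1715 ± 133 (log2 fold change -0.21), with adjusted p-values of 0.029 and 0.0362 by edgeR. Cox4i1, the most abundant general subunit of the complex in counts, had 7762 to 8532 in CON and 7069 to 8014 in PEA. It missed the threshold at an adjusted p of 0.051 by edgeR, and Cox6c did so at 0.0523. Cox6a1, Cox7c and Cox8a had adjusted p-values from 0.135 to 0.451. Cox7a2l, which helps to join complexes III and IV into supercomplexes, had a log2 fold change of 0.03 (SE 0.05, edgeR adjusted p = 0.719), with 3373 ± 198 in CON and 3442 ± 193 in PEA.

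Of the 3 muscle isoforms, Cox6a2 was called higher in PEA, whereas Cox7a1 and Cox8b had lower means without passing the test. All 3 were counted at far lower levels than their general counterparts. Cox6a2 (chr7:127804607-127805559) had 212, 258 and 439 normalized counts as lowest, median and highest value in CON and 310, 428 and 500 in PEA. CON replicate 2 was the highest CON library and exceeded PEA replicates 1, 3 and 6, so the groups overlapped. The mean rose from 286 ± 83.1 to 412 ± 84.3 (log2 fold change 0.53 with SE 0.17, edgeR adjusted p = 0.0481). The call lay close to the threshold. It held in 3 of the 12 fits that left out 1 library (without CON replicate 2, PEA replicate 1 or PEA replicate 3), with adjusted p-values between 0.00317 and 0.11. Its exons overlap Itgad on the opposite strand, and the counts of Cox6a1 were fractional in all 12 libraries.

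Cox7a1 (chr7:29883569-29885503) had 26.7, 37.8 and 59.0 normalized counts in CON and 23.4, 28.0 and 32.3 in PEA. All PEA libraries lay below the CON median, but CON replicate 3 was within their range (log2 fold change -0.50 with SE 0.22, edgeR adjusted p = 0.141). Cox8b (chr7:140477069-140480359) had 79.3, 111 and 139 in CON and 44.4, 85.7 and 110 in PEA. PEA replicate 4 was its lowest library, and the groups overlapped (log2 fold change -0.39 with SE 0.20, edgeR adjusted p = 0.223).

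**Figure D2:**
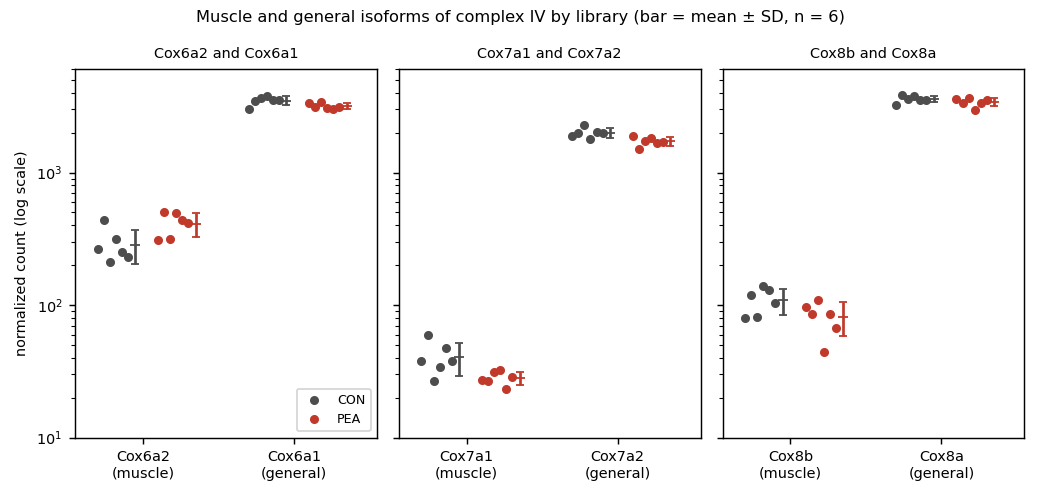
Normalized counts of the muscle isoforms Cox6a2, Cox7a1 and Cox8b and of the general isoforms Cox6a1, Cox7a2 and Cox8a in each library, on a log axis, with mean ± SD beside the 6 points of each group. Cox6a2 ranges from 212 to 439 in CON and from 310 to 500 in PEA, while Cox6a1 stays between 2996 and 3781 in all 12 libraries.

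The ratio of muscle to general isoform within a library does not depend on the scaling of that library. Cox6a2 made up 5.48%, 7.19% and 11.3% of the Cox6a counts as lowest, median and highest share in CON and 8.42%, 12.2% and 13.9% in PEA. In 4 of 6 PEA libraries the share was above the highest CON share, that of CON replicate 2. The log2 ratio of Cox6a2 to Cox6a1 rose from -3.64 ± 0.40 to -2.97 ± 0.37 (two-sided exact permutation test, n = 6 per group, p = 0.013, adjusted p = 0.039 over 3 pairs, with 0.00216 as the smallest p that 12 libraries taken as independent allow). Leaving out 1 library gave differences between 0.58 and 0.80, and its adjusted p was 0.05 or more in 9 of 12 cases. The exceptions were again CON replicate 2, PEA replicate 1 and PEA replicate 3.

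The log2 ratio of Cox7a1 to Cox7a2 was -5.63 ± 0.44 in CON and -5.88 ± 0.16 in PEA (exact permutation test, p = 0.227, adjusted p = 0.227). Without CON replicate 3 the difference was -0.40 and the adjusted p was 0.00649 by the exact permutation test. The log2 ratio of Cox8b to Cox8a was -5.06 ± 0.29 and -5.42 ± 0.37 (exact permutation test, p = 0.0952, adjusted p = 0.143).

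The promoters of the 3 muscle isoforms are shown because Cox6a2 was the one member called higher while Cox7a1 and Cox8b were not called, beside those of Cox6b1, the member with the smallest p, and Atp5f1e, a called subunit of complex V. All were chosen after the values were seen. Each sequence is the 250 bases before the annotated start of the gene, 5′ to 3′ on its own strand in GRCm39, and none overlaps an annotated exon. Capitals mark letters that match a searched motif, namely MEF2 (CTA and TAG with 4 free bases between them), the E box CAGCTG that myogenic factors bind, or ETS (CCGGAAG), on either strand.

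Cox6a2, chr7:127805560-127805809, minus strand: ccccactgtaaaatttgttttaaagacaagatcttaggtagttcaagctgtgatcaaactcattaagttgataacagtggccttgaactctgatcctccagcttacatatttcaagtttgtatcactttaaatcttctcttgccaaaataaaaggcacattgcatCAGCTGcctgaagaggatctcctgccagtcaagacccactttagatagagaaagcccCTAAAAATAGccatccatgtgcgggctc

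Cox8b, chr7:140480360-140480609, minus strand: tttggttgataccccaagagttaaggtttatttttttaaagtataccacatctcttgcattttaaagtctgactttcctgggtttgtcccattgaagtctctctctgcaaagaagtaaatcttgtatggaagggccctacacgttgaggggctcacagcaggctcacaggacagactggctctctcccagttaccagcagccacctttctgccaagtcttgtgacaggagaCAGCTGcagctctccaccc

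Cox7a1, chr7:29883319-29883568, plus strand: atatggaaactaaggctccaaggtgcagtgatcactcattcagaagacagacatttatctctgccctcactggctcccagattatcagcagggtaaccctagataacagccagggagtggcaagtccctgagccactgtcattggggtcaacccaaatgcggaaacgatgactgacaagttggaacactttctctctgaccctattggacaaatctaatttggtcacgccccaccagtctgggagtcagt

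Cox6b1, chr7:30325617-30325866, minus strand: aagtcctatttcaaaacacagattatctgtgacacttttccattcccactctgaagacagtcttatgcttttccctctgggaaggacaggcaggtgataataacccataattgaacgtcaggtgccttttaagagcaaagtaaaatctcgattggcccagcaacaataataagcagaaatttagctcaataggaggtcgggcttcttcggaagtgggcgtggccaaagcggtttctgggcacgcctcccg

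Atp5f1e, chr2:174305907-174306156, minus strand: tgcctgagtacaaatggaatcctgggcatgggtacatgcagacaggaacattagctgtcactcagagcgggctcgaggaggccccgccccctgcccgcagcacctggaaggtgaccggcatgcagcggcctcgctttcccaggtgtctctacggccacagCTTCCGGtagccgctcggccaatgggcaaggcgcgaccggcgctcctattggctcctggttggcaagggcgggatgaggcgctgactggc

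The Cox6a2 window holds a match to the MEF2 letters at positions -28 to -19 and an E box at -85 to -80, counted back from the start of the gene. The Cox8b window holds an E box at -19 to -14, and the Atp5f1e window an ETS match at -90 to -84. No match to the 7 searched patterns was found in the windows of Cox7a1 and Cox6b1, which says only that these letters are not there.

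Over the 47 nuclear members, windows of 250 bases before to 50 bases after the start were searched and set beside those of all 21770 protein-coding genes. NRF1, a factor known for respiratory chain promoters, was searched as GCGC and TGCGC with 1 free base between them, which stood in 7 member windows (14.9%) and in 5.81% of all windows. The looser form, with GCGC on both sides of 2 free bases, was found in 7 members as well (all windows, 7.54%). The ETS letters stood in 9 members (19.1%, all windows 10.3%), the ERR letters AAGGTCA in 4 (8.51%, all windows 4.48%) and the MEF2 letters in 3 (6.38%, all windows 3.81%). The E box stood in 6 (12.8%, all windows 14.9%) and the YY1 letters AAGATGGCG in 0 (all windows, 1.34%). The median log2 fold change of members with a match lay between -0.18 and -0.14 for each motif found, and that of members without it was -0.17 in each case.

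In complex V, 8 of 17 subunits were lower, with a median log2 fold change of -0.17 over the 17. The subunits called were Atp5f1a, Atp5f1b and Atp5f1e of the head and central stalk, Atp5pb, Atp5pd and Atp5pf of the peripheral stalk, Atp5mc3 of the rotor ring, and Atp5mk, a small subunit near the dimer interface. All 17 had a log2 fold change below 0.

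Atp5mk (chr19:47071822-47079143) had the largest decrease among the called members. Its lowest, median and highest values were 973, 1009 and 1145 normalized counts in CON and 698, 788 and 930 in PEA. The groups did not overlap, and PEA replicates 1 and 3 were the highest PEA libraries. The mean fell from 1046 ± 74 to 804 ± 95, or 76.8% of CON (log2 fold change -0.38 with SE 0.07, edgeR adjusted p = 0.00463).

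Atp5pb (chr3:105849374-105867415) had 4103, 4355 and 4695 in CON and 3455, 3808 and 4041 in PEA, again without overlap (log2 fold change -0.22 with SE 0.05, edgeR adjusted p = 0.00918). Atp5f1b (chr10:127919132-127926261), the catalytic beta subunit, was the nuclear member with the most counts, and it ranged from 36978 to 40345 in CON and from 33266 to 36564 in PEA. No PEA library reached the CON range, for a decrease to 90.3% of CON (log2 fold change -0.15 with SE 0.04, edgeR adjusted p = 0.0365). Atp5f1a, the alpha subunit, fell from 15815 ± 1008 to 14170 ± 633 (adjusted p = 0.0489 by edgeR), a call that held in 2 of the 12 fits without 1 library. Atp5f1e, the epsilon subunit, fell from 2576 ± 209 to 2186 ± 150 (log2 fold change -0.23 with SE 0.06, edgeR adjusted p = 0.0182), and with the length and GC trend removed it was at -0.08 and not called (adjusted p = 0.22).

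Subunit c, which forms the rotor ring, is encoded by 3 genes for the same mature protein. Atp5mc3 (chr2:73738779-73741933) ranged from 7532 to 9535 in CON (median 8704) and from 6063 to 7844 in PEA (median 6944). PEA replicate 1 was the only PEA library above the lowest CON library. The mean fell from 8642 ± 774 to 6985 ± 625 (log2 fold change -0.31 with SE 0.07, edgeR adjusted p = 0.00923). Atp5mc1, with 1430 ± 89.9 and 1349 ± 126, and Atp5mc2, with 140 ± 20.9 and 125 ± 19.0, were not called (adjusted p = 0.436 and 0.477 by edgeR). Atp5mc3 held 84.6% ± 1.23 of the counts of the 3 genes in CON and 82.6% ± 0.992 in PEA. Counts were fractional in 11 of 12 libraries for Atp5mc1 and Atp5mc2 and in 8 for Atp5mc3, so the split of reads behind these shares is uncertain.

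Other subunits of complex V did not pass the threshold. Atp5me was at -0.38 (SE 0.13, edgeR adjusted p = 0.0613), and its CON values were 778 to 921 in 5 libraries and 1453 in CON replicate 4. Without that library its log2 fold change was -0.21 (adjusted p = 0.0497 by edgeR). Atp5mj was at -0.27 (SE 0.09, edgeR adjusted p = 0.0623), with PEA replicate 3 at 1431 within the CON range. Atp5mf, Atp5mg and Atp5f1c had adjusted p-values of 0.0568, 0.0699 and 0.0669 by edgeR. Atp5if1, the inhibitor that blocks ATP hydrolysis when the proton gradient is lost, was not called. It had 1760 ± 72.7 in CON and 1691 ± 104 in PEA (edgeR log2 fold change -0.06 with SE 0.05, adjusted p = 0.482).

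Of the 6 members in mitochondrial DNA, all but mt-Atp8 were more abundant per length than any nuclear member. mt-Co1, the catalytic core of complex IV, had 96970, 119843 and 141051 normalized counts as lowest, median and highest value in CON and 88838, 118757 and 135374 in PEA. The groups overlapped almost fully (log2 fold change -0.05 with SE 0.10, edgeR adjusted p = 0.813). PEA replicates 2 and 6 were the lowest PEA libraries for each of these 6 genes, whereas PEA replicate 5 was above the CON median for mt-Co1, mt-Co2, mt-Cytb and mt-Atp6. mt-Co2, mt-Co3, mt-Cytb and mt-Atp6 had log2 fold changes of -0.06, -0.11, -0.10 and -0.14, with SE from 0.07 to 0.10 and adjusted p-values from 0.3 to 0.761 by edgeR. The median of the nuclear members, -0.17, lay within 2 SE of each of these values.

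mt-Atp8 (chrM:7766-7969) stood apart with a log2 fold change of -0.49 (SE 0.18, edgeR adjusted p = 0.0908). It had 1149 to 1342 normalized counts in 5 CON libraries, 2695 in CON replicate 4 and 839 to 1266 in PEA. Without CON replicate 4 its log2 fold change was -0.23 (adjusted p = 0.126 by edgeR). mt-Atp8 overlaps mt-Atp6 on the same strand, and mt-Atp6 overlaps mt-Co3, so the split of reads among these genes is uncertain. The 13 protein-coding genes of mitochondrial DNA together took 1.85%, 2.22% and 2.41% of all counts as lowest, median and highest share in CON and 1.65%, 2.12% and 2.42% in PEA. The 47 nuclear members took 0.903%, 0.949% and 1.0% in CON and 0.82%, 0.859% and 0.91% in PEA, where only PEA replicate 1 exceeded the lowest CON library.

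**Figure D3:**
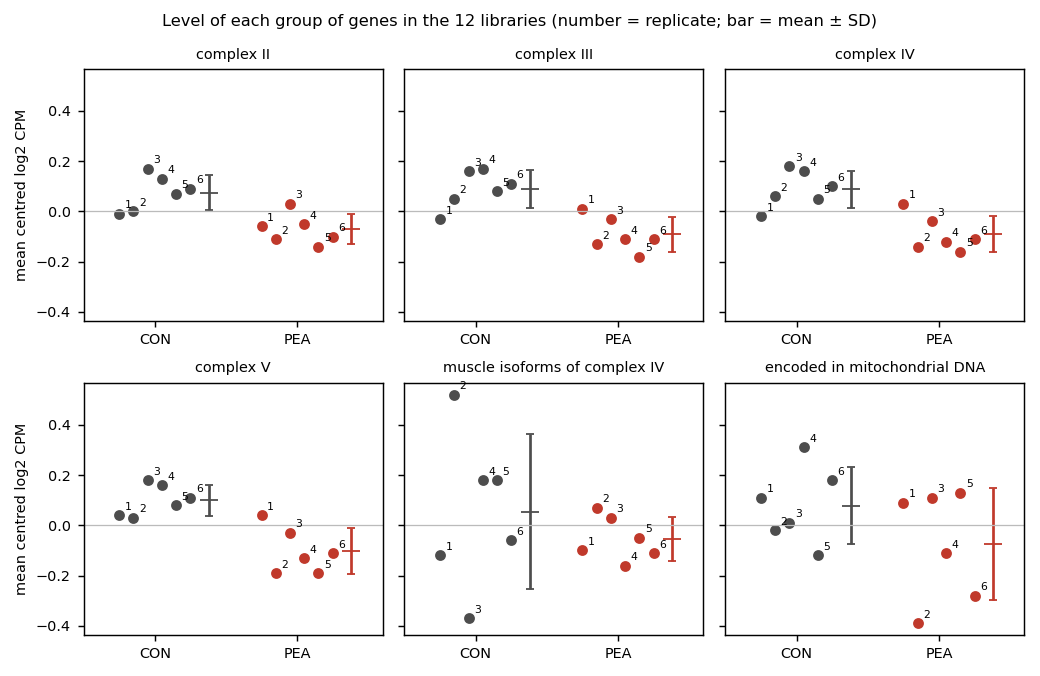
Mean over the members of each group of log2 CPM (counts scaled to library size), each gene centred on its mean over the 12 libraries, with the replicate number beside each point and mean ± SD at the right. In complexes II to V the CON libraries lie between -0.03 and 0.18 and the PEA libraries between -0.19 and 0.04, while the members in mitochondrial DNA range from -0.12 to 0.31 in CON and from -0.39 to 0.13 in PEA. The 0.31 of CON replicate 4 includes mt-Atp8 at 1.17.

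The complexes had similar highest and lowest libraries. Whether they vary together within a group was not tested. Nuclear members were highest in CON replicate 4 (0.15 above the mean over libraries in log2 CPM) and CON replicate 3 (0.13), and lowest in PEA replicate 5 (-0.16) and PEA replicate 2 (-0.14). PEA replicates 1 and 3, at 0.01 and -0.02, were the PEA libraries nearest to CON, and CON replicate 1, at -0.01, was the CON library nearest to PEA. Within the complexes, CON replicate 3 or 4 was the highest library and PEA replicate 5 the lowest, in complex V together with PEA replicate 2. The members in mitochondrial DNA had another order, with CON replicate 4 (0.31) highest, PEA replicate 2 (-0.39) lowest and PEA replicate 5 (0.13) among the higher ones. In CON replicate 4, mt-Atp8 was at 1.17 and the others lay between -0.04 and 0.29, so its place rests largely on mt-Atp8. The muscle isoforms had the widest spread in CON, from -0.37 in replicate 3 to 0.52 in replicate 2.

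Related genes were listed by function. Assembly factors build the complexes without staying in them. In complex III, Uqcc2, needed for synthesis of cytochrome b, fell from 2095 ± 102 to 1774 ± 91.1 without overlap (log2 fold change -0.24 with SE 0.05, edgeR adjusted p = 0.00503), as 1 of 10 factors (10.0%, against 4.74% of all genes called lower). In complex IV, Cox20, a chaperone of mt-Co2, fell from 198 ± 35.3 to 135 ± 13.3 (log2 fold change -0.55 with SE 0.12, edgeR adjusted p = 0.0103), and Cox19 had a log2 fold change of -0.20 (adjusted p = 0.0456 by edgeR). These were 2 of 23 factors tested (8.7%). By edgeR 0 of 4 factors of complex II and 0 of 6 of complex V were called, and DESeq2 also called 0. At an unadjusted p below 0.05 in edgeR there were 0 and 1. The medians of the 4 lists of factors lay between -0.07 and -0.01.

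Of 24 genes for transcription, RNA processing and translation in mitochondria, 0 were called by edgeR and 1, in the higher direction, by DESeq2, with 4 at an unadjusted p below 0.05 and a median of -0.03. Of 17 tested regulators of mitochondrial biogenesis, 1 was called lower (5.88%, near the 4.74% of all genes), the muscle factor Mef2a, which fell from 5355 ± 661 to 4493 ± 380 (log2 fold change -0.25 with SE 0.08, edgeR adjusted p = 0.0441). The coactivator Ppargc1b had 117 ± 20.2 in CON and 87.0 ± 11.4 in PEA (edgeR log2 fold change -0.43 with SE 0.14, adjusted p = 0.0616). The median of the regulators was 0.01.

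Other mitochondrial proteins, such as carriers, porins and import receptors, were nearer to the members. Of 23 tested, 6 were lower (26.1%, against 4.74% of all genes). The log2 fold change was below 0 for 22 of them (all genes, 48.7%), with a median of -0.15. The phosphate carrier Slc25a3, which supplies complex V, fell from 16264 ± 1116 to 13843 ± 640 without overlap (log2 fold change -0.23, adjusted p = 0.00933 by edgeR). The porin Vdac1 (-0.18, adjusted p = 0.0163) and the prohibitins Phb1 (-0.23, adjusted p = 0.0149) and Phb2 (-0.15, adjusted p = 0.0363) were also lower in log2 fold change by edgeR, as was the import receptor Tomm70a (-0.17, adjusted p = 0.0413). The 7 complex I subunits of mitochondrial DNA had a median of -0.20, and edgeR and DESeq2 called 0 of them, with 3 at an unadjusted p below 0.05 in edgeR.

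**Figure D4:**
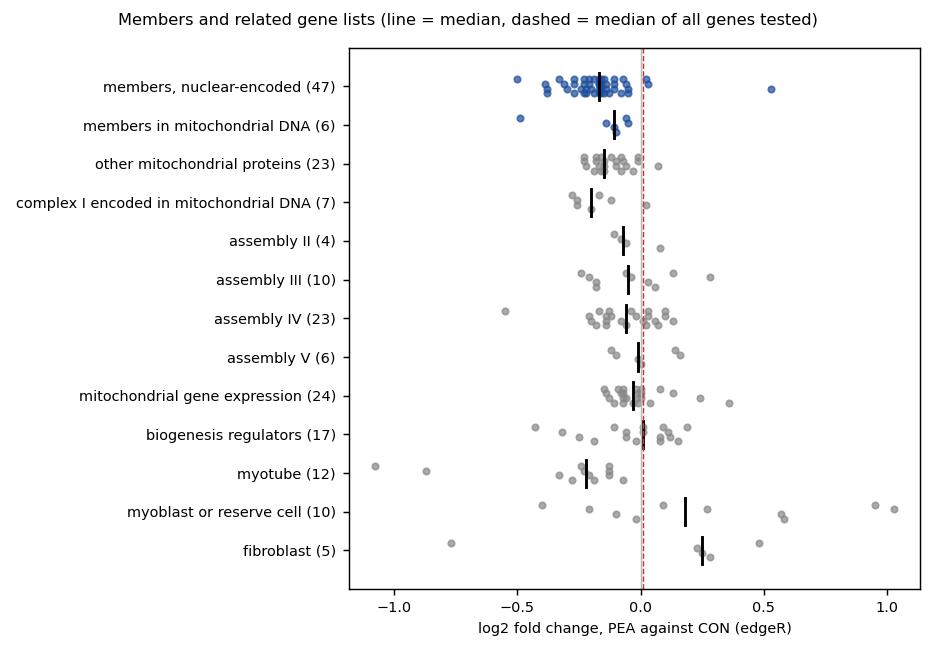
Log2 fold change of PEA against CON for each member (blue) and each tested gene of the related lists and marker lists (grey), with a black line at the median of each list and a dashed line at 0.01, the median of all genes tested. The nuclear members (median -0.17) and the other mitochondrial proteins (-0.15) lie mostly left of 0, and the assembly factors spread on both sides of it. The markers of myoblasts and reserve cells range from -0.4 to 1.03 (median 0.18).

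Markers of cell state moved as well. For comparison, 4.74% of all genes tested were called lower and 6.31% higher, and 48.7% had a log2 fold change below 0. All 12 myotube markers had a log2 fold change below 0 (median -0.22), and Actn2 (-1.08), Mb (-0.87), which encodes the oxygen store myoglobin, and Tnnt3 (-0.33) were called lower by edgeR. The summed level of the 12 ranged from 104853 to 165338 normalized counts in CON (median 138762) and from 107060 to 129138 in PEA (median 120662), so that the sums overlapped. Of 10 markers of myoblasts and reserve cells, 4 had a log2 fold change below 0 (median 0.18). The cell cycle genes Top2a, Cdk1, Mki67 and Ccnb1 were higher and Id3 was lower, while Pax7 (-0.02) and Myf5 (0.09), which mark the myogenic lineage, Id1 (-0.10), Spry1 (-0.21) and Notch3 (0.27) were not called by edgeR. The 10 markers had sums of 5743 to 8430 in CON and 8126 to 9357 in PEA. The higher sums in PEA came with the cell cycle genes, such as Top2a (mean 1145 in CON, 2203 in PEA) and Cdk1 (1010, 1504). Of the others, Id3 (1118, 842), Spry1 (642, 555), Id1 (596, 553) and Pax7 (114, 111) had lower means in PEA. Notch3 (906, 1093) and Myf5 (477, 508) had higher means. The 6 fibroblast markers, of which 5 were tested, summed to 12026 to 21386 in CON and 19221 to 21677 in PEA. Dcn and Col1a2 were called higher, while Lum had 31.3 ± 6.54 in CON and 18.3 ± 6.53 in PEA (edgeR log2 fold change -0.77, adjusted p = 0.0851). Col1a2 made up most of these sums, and DESeq2 called 1 of the 5 higher. The 4 macrophage markers with counts, of which Cd68 and Lyz2 were tested, summed to 74.3 to 151 in CON and 96.4 to 133 in PEA. Ptprc, 1 of the 4, averaged 0.319 and 0.843 normalized counts. Of the adipocyte markers, Fabp4 averaged 27.4 in CON and 22.5 in PEA and Plin1 averaged 0.262 and 1.77. The part of the myotube and myoblast markers in the lower level of the members was not tested.

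Members have short transcripts, with a median canonical length of 1101 bases against 3298 for all genes tested. All genes were divided into quintiles by length. In the shortest quintile (151 to 1718 bases) the median log2 fold change was -0.07, and it rose over the others to -0.01, 0.01, 0.03 and 0.04. The 37 members in the shortest quintile had a median of -0.16, the 9 in the next (1719 to 2757 bases) -0.17 and the 6 in the middle quintile -0.20. Of these members, 29 of 37, 9 of 9 and 6 of 6 lay below the median of all genes in their quintile. When the trend of each library with canonical length and GC content was removed, an alternative added after the data had been seen, 22 members were called lower, while the share of all genes called lower went from 4.74% to 9.21%. Of the 21 members called lower before, Atp5f1e, Cox5b and Cox7a2 were not called in that fit.

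**Figure D5:**
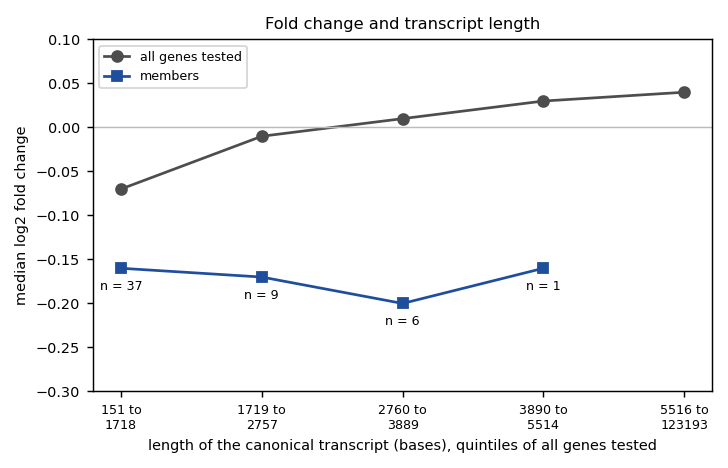
Medians of the log2 fold changes of all genes tested (grey) and of the members (blue) in quintiles of canonical transcript length, with the number of members at each blue point. All genes rise from -0.07 in the shortest quintile to 0.04 in the longest, and the members lie between -0.20 and -0.16 in the 4 quintiles that hold any.

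Levels of different genes were compared per kilobase of canonical transcript. In normalized counts per kilobase in CON, mt-Co1 was highest (76765), followed by mt-Co2 (72560), mt-Atp6 (64594), mt-Co3 (41214) and mt-Cytb (36674). Of the nuclear members, Atp5f1b (19977), Cox4i1 (10521) and Atp5mc3 (8747) were highest, and PEA gave 18030, 9558 and 7069 for the same genes. The muscle isoforms were at 421 (Cox6a2), 91.7 (Cox7a1) and 50.5 (Cox8b) per kilobase in CON, against 6095, 2446 and 6344 for Cox6a1, Cox7a2 and Cox8a. These levels depend on the transcript chosen as canonical, which for some small subunits is far longer than the coding part.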

How the data were processed

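Poly(A) RNA-seq libraries of C2C12 myotubes, 6 CON and 6 PEA, were analysed. The authors aligned reads to mm39 with STAR (4.4.1d in the submitters' processing notes), quantified genes in Partek and deposited estimated counts without normalization. The authors also deposited a signal on a linear scale, in which those counts were divided by 1 factor per library (median-ratio normalization of DESeq2). The ratio of the tables was constant within each library (largest relative deviation 1.4e-07). Estimated counts above 0 were fractional in 23.5% of cases (more than 0.05 from a whole number), as reads shared between genes are split, and all were rounded before testing. The labels have 13 entries because PEA replicate 2 has 2 sequencing runs with 1 row of counts, counted as 1 library. The GENCODE annotation of GRCm39 named 16343 of the 16382 identifiers. These end before the highest identifiers of the annotation, and 2240 of its 21770 protein-coding genes lie beyond the last one and were not analysed here, so shares of all genes refer to the genes in the tables.

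The main test was edgeR 4.0.16 in R 4.3.3 (quasi-likelihood, TMM, default filter, no covariates) on all 12 libraries. Alternatives were DESeq2 1.42.0, limma-voom (limma 3.58.1), limma on log2 of the deposited values plus 1, median-of-ratios factors, library sizes without mitochondrial genes, no filter, at least 10 counts in every library, removal of the trend with exon length and GC content, the replicate number as a block, thresholds of 0.01 and 0.1, and each library left out. Removal of the trend with canonical transcript length was chosen after seeing the data. Isoform ratios used log2 of counts plus 1 (alternatives 0.5 and 5) and all 924 assignments of the libraries. The scripts were tested on simulated data. Promoters were read from GRCm39. Python 3.11.15 was used for tables and figures.

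The members and the lists were chosen with earlier results of these data known. Named in full were the isoform pairs, the mitochondrial members, the 3 members of each complex with the smallest p, members above 0 and members without overlap, and up to 5 genes of each list by p. Replicate numbers were checked as pairs, and the correlation of same-numbered libraries was -0.083 to 0.065, so they were not taken as pairs.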

Additional observations from a re-analysis of the deposited data

Results flagged for a closer look

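In 7 of the 106 groups of 6 libraries examined (53 members in CON and in PEA), 1 library stood farther from the others than Dixon's 95% limit for 6 values allows, and chance gives about 5.3 such groups. CON replicate 4 was the highest library for mt-Atp8 at 2695 normalized counts (next library 1342), for Atp5me at 1453 (next 921) and for Uqcr11 at 1972 (next 1640). CON replicate 1, the deepest library, was the lowest for Atp5f1d at 5648 (next 5816) and for Atp5mc1 at 1255 (next 1431). PEA replicate 1 was the highest for Cyc1 at 4925 (next 4399), and PEA replicate 3 was the highest for Atp5if1 at 1885 (next 1679). Of these genes, only Uqcr11 was called by edgeR, and without CON replicate 4 its log2 fold change was -0.21.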

How the results depend on the processing

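With each library left out in turn, 6 to 28 members were called lower (0 to 3 in complex II, 1 to 6 in complex III, 2 to 8 in complex IV, 3 to 12 in complex V) and 0 to 1 higher. The log2 ratio of Cox6a2 to Cox6a1 then differed by 0.58 to 0.80 and that of Cox7a1 to Cox7a2 by -0.40 to -0.13. Log2 fold changes near 0 changed sign for Uqcrq (0.00 to 0.05), mt-Co1 (-0.10 to 0.02) and mt-Co2 (-0.12 to 0.00). An adjusted p below 0.01 left 4 members lower (0 in complexes II and III, 1 in complex IV, 3 in complex V) and 0 higher. Below 0.1, complex V had 13 and mitochondrial DNA 1. DESeq2 called 13 in complex V, and without a filter complex II had 1. Removal of the exon length and GC trend gave 8 in complex IV and 13 in complex V, and put Cox5b-ps at 0.08, Cox7a2l at -0.02, Uqcrq at -0.01 and mt-Co2 at 0.03. With canonical length complex IV had 3 and a median of -0.08, and Atp5if1 (0.03), Atp5mc1 (0.02), Cox5b-ps (0.08), Cox8a (0.03) and mt-Co2 (0.02) changed sign. These 2 fits moved the calls over all genes from 623 lower and 829 higher to 1273 and 703 and to 1211 and 683. The cause of these shifts was not tested. The replicate number as a block gave 21 members lower and 1 higher, with Atp5f1a, Atp5f1b, Cox5b and Uqcrfs1 lost and Atp5mf, Atp5mj, Cox6c and Sdhb gained, and no pairing was taken from it, since 0 of the 6 numbers had their own number as best match. Under the block the Cox6a2 ratio kept its difference of 0.67, with an adjusted p of 0.0938 (exact sign-flip permutation test), the smallest that 6 pairs allow for 1 ratio of 3 (unadjusted 0.0312), with all 6 differences above 0, so that the p says nothing about a lost call. In 161 other combinations of a count, median or ratio with an alternative that used all libraries, a count stayed within 1.5 times, a median within the spread between libraries and a ratio on its side of the threshold. For single members, 476 such combinations left the call as it was, 34 added and 11 removed it, and 9 turned the sign. A ratio of Cox4i2 to Cox4i1 and a comparison of isoform proteins were not run. With 1 library left out, calls over all genes ranged from 286 lower without PEA replicate 6 to 971 without CON replicate 2. Differences smaller than the spread between these 6 and 6 libraries were not detectable.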
